A study of Mus musculus with 2 samples.

Results

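The cells described here were the spinal microglia with a high content of immediate early transcripts, taken from a band of moderate ribosomal protein share in 2 single-cell libraries, above a minimum depth. They were chosen by a measured share. A barcode was kept as a cell when it had over 300 genes detected and less than 5% of its UMIs from mitochondrial genes. Kept cells with at least 1200 UMIs and a ribosomal protein share from 2.5% to under 8% formed a pool of 424 cells. In each pool cell, the UMIs of Fos, Jun, Junb, Ier2, Egr1, Atf3, Dusp1, Zfp36 and Btg2 were summed as a percentage of all its UMIs, called the early share. The 212 cells above the pool median, 1.59%, were the members, and the 212 at or below it were the rest of the pool. The members were 212 of 1592 kept cells. A UMI (unique molecular identifier) marks 1 captured RNA molecule, so copies made by PCR are counted once.

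Microglia came from the spinal cord of male mice, lumbar per the labels, and were read with 10x Genomics 3′ chemistry after collagenase digestion, a Percoll gradient and sorting as CD45lo CD11b+ CX3CR1+ cells. The control library was labelled WT and came, per the study, from Eif4ebp1 fl/fl mice. The other library was labelled 4E-BP1-cKO (Eif4ebp1 fl/fl:TMEM119CreERT2), in which a Cre recombinase driven by the microglial Tmem119 promoter was switched on by 4-hydroxytamoxifen given to pups, and the floxed Eif4ebp1 allele was shared by both genotypes. The labels name no nerve injury for these samples, and the number of mice behind each library was not named. The control library held 1216 barcodes with 4914298 UMIs, of which 1147 barcodes were kept. For 4E-BP1-cKO these were 474 barcodes, 1769927 UMIs and 445 kept cells. The 2 libraries shared 0 barcodes. With 1 library per genotype there is no replicate, so no p-value is given, and the 95% intervals below cover counting error only.

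Immediate early genes are transcribed within minutes of a stimulus, without new protein synthesis. Many encode transcription factors, such as FOS and JUN, which pair to form AP-1, and others encode proteins that shut the response down, such as the phosphatase DUSP1 and the mRNA decay factor ZFP36. Heat shock genes encode chaperones that refold damaged proteins, and NF-kappaB is the main driver of chemokine and cytokine genes in microglia, whose products draw in and stimulate other immune cells. Eif4ebp1 encodes 4E-BP1, which keeps eIF4E, the factor that recognizes the mRNA cap, from starting translation, and which mTORC1 inactivates by phosphorylation. All cells were digested by the same protocol, so transcripts present in the cord and those gained during preparation cannot be told apart. Whether the libraries were digested and sorted together is not stated, and the sorter used for each is not named.

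Fos lies on chr12:85473890-85477274 (GRCm38, the build also called mm10, plus strand, positions from RefSeq). The 150 bases before its start (chr12:85473740-85473889, RefSeq sequence, GRCm38.p6) are shown because Fos is the best known of the genes that chose the members. The capitals mark a TATA box.
Fos promoter: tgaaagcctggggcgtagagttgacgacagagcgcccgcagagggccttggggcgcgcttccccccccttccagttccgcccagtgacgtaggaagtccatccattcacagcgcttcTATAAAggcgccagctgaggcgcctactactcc
The letters TATAAA occurred on either strand in 12.4% of 32851 promoters, searched over the 250 bases before each start. The full cyclic AMP element TGACGTCA (1.55% of promoters), the AP-1 element TGANTCA (6.75%) and the heat shock element (0.466%) were also searched. Atf3, Hspa1a and Ccl3 held no exact match to any of them in that window. No match says only that these letters were not there.

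The pool held 304 control and 120 4E-BP1-cKO cells, 26.5% and 27.0% of the kept cells of each library. Of these, 136 control cells were members (44.7%, exact binomial interval 39.1 to 50.5%) and 76 4E-BP1-cKO cells were (63.3%, 54.1 to 71.9%), given as a description since the early share itself set membership. Because the median was taken over both libraries together, a higher share in one library lowers it in the other. The early share of members had a lowest, median and highest value of 1.59%, 2.41% and 5.49% in control and of 1.59%, 2.69% and 5.95% in 4E-BP1-cKO cells. In the rest of the pool the medians were 0.887% and 1.08%. The lowest member stood at 1.5938% and the highest cell outside at 1.5873%, and 28 control and 5 4E-BP1-cKO cells lay within 0.1 percentage points of the limit, so the members are the upper range of a continuous measure and not a separate cell type.

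**Figure D1:**
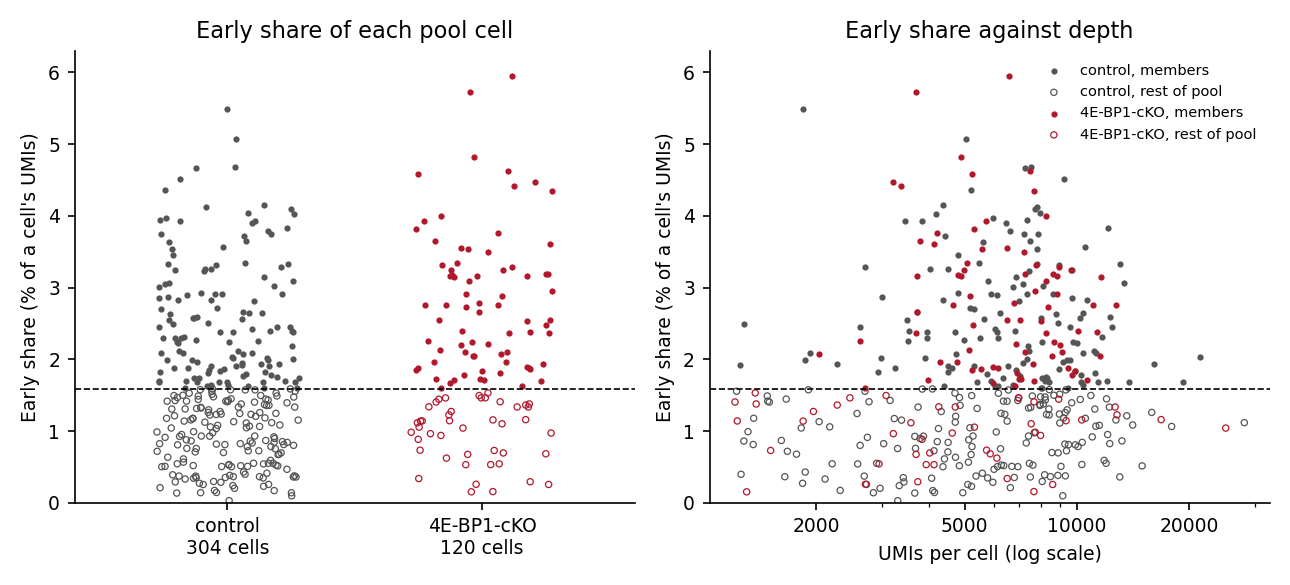
Early share of each of the 304 control and 120 4E-BP1-cKO pool cells (left, percent of the cell's UMIs, with points spread sideways for visibility) and the same share against UMIs per cell (right, log scale). Filled points are members, open points the rest of the pool, and the dashed line is the pool median of 1.59%; no gap separates the groups at that line.

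Members were somewhat deeper than the rest. Their median UMIs per cell were 7006.5 in control and 6834.5 in 4E-BP1-cKO cells, against 5971 and 4444 in the rest, and the early share followed total UMIs with a Spearman rho of 0.15 in control and 0.17 in 4E-BP1-cKO pool cells. Their median ribosomal protein shares were 5.41% and 5.52%, against 4.43% and 4.15%. Mitochondrial shares were similar, with medians of 0.567% and 0.473% in members and 0.649% and 0.443% in the rest. Kept cells outside the pool also carried early transcripts. Those with a higher ribosomal protein share had a median early share of 1.77% in control and 2.14% in 4E-BP1-cKO cells.

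The label microglia held against the defining markers. P2ry12, the purinergic receptor of resting microglia, was detected in 98.5% of control and 94.7% of 4E-BP1-cKO members. Cx3cr1, the fractalkine receptor, was found in 99.3% and 100% of them, and Csf1r, the receptor on which microglia depend to survive, in 97.8% and 100%. Siglech and Gpr34 were found in at least 88.2% of members of either genotype, and Sall1, a transcription factor of microglial identity, in 58.1% and 61.8%. These shares were as high as or close to those in the rest of the pool. Tmem119, whose promoter drives the Cre in the 4E-BP1-cKO mice, was found in 88.2% of control and 61.8% of 4E-BP1-cKO members.

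Other cell types left few transcripts. At least 3 markers of another type or of proliferation were present in 4 control and 0 4E-BP1-cKO members, and in 8 and 1 cells of the rest. Of the 4 control members, 1 was counted on proliferation markers. Border-associated macrophage markers summed to 6 UMIs in control and 0 in 4E-BP1-cKO members (56 and 0 in the rest), monocyte markers to 15 and 4 (11 and 5), T and NK cell markers to 0 and 1 (3 and 0), and neuronal markers to 6 and 3 (11 and 3). Neutrophil markers summed to 383 and 156 UMIs (403 and 103), and in members all but 1 came from Csf3r, a cytokine receptor gene. B cell markers summed to 146 and 83 UMIs (184 and 42), with 133 and 72 of the members' from Ighm. Astrocyte markers summed to 103 and 28 UMIs (127 and 21), mostly from Slc1a3, oligodendrocyte markers to 71 and 42 (100 and 120), endothelial markers to 57 and 27 (261 and 6), and erythrocyte markers to 11 and 1 (28 and 3). The rest of the pool thus held more endothelial and border-associated macrophage transcripts in control cells and more oligodendrocyte transcripts in 4E-BP1-cKO cells. Proliferation markers summed to 240 UMIs in control and 45 in 4E-BP1-cKO members against 51 and 9 in the rest. A single control cell held 163 of the 240. In control members 94 of these came from Stmn1, a microtubule regulator, and 60 from Top2a, a topoisomerase of dividing cells, which gave 2 UMIs in 4E-BP1-cKO members. Free RNA could not be estimated, since no cell type lacking these genes was captured in number and empty droplets were not analysed here.

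Since the 9 genes chose the members, their own levels are a description only. Levels are given in CPM, UMIs scaled to a library size of 1000000 UMIs without those of the 9 genes and summed over the cells of a library. Fos stood at 4996 CPM in control members and 1214 CPM in the control rest, and at 4334 and 1308 CPM in 4E-BP1-cKO cells. Atf3, a stress-induced repressor, stood at 2685 against 888 CPM and at 3346 against 1201 CPM. Ier2, a small nuclear early protein, stood at 476 against 166 CPM and at 870 against 241 CPM. To see how far the genes went together, the pool was divided again for each gene on the share of the other genes alone. Fos then stood 2.97-fold higher in the upper cells of the control library (2.81 to 3.14) and 2.77-fold higher in those of the 4E-BP1-cKO library (2.49 to 3.10). Each of the 9 genes was higher in both libraries in this way. The ratios ran in control from 1.603 (1.45 to 1.77) for Dusp1 to 2.98 (2.79 to 3.19) for Egr1, a zinc finger transcription factor, and in 4E-BP1-cKO cells from 1.90 for Btg2, an antiproliferative gene, to 3.08 for Ier2.

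Across the transcriptome, members were compared with the rest of the pool separately in each library, for 4194 genes with at least 30 UMIs in each library's pool cells. In both libraries, 220 genes (5.25%) were over 1.5-fold higher in members and 120 (2.86%) over 1.5-fold lower. Without the cells that had 3 or more markers of another type or of proliferation, 220 genes were higher and 131 lower of 4189. For 167 and 78 of the genes first counted, the counting intervals excluded a ratio of 1 in both libraries. The median log2 ratio over all 4194 genes was -0.07 in control and -0.04 in 4E-BP1-cKO cells, and 68.1% of the genes had the same direction in both. The contrast is the one that chose the cells, so these counts describe what the members carried along with the 9 genes.

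**Figure D2:**
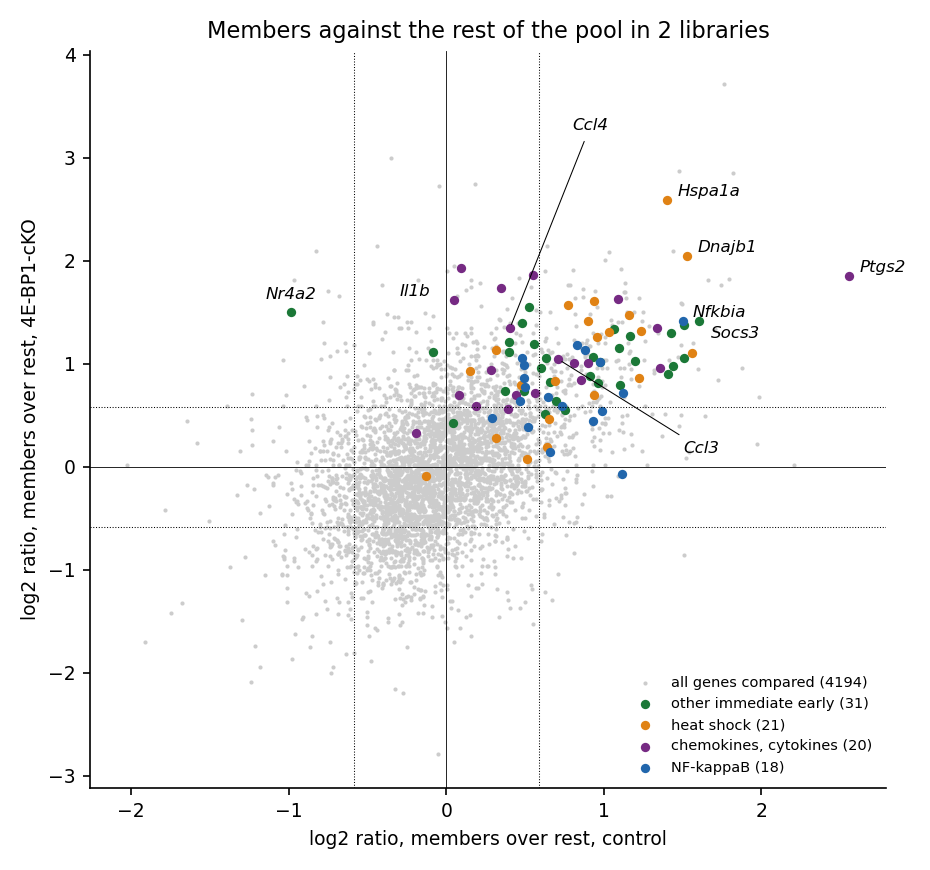
Log2 ratio of CPM in members over the rest of the pool for 4194 genes, control on the horizontal and 4E-BP1-cKO on the vertical axis, with 4 gene lists in color and dotted lines at 1.5-fold. The genes of these lists lie mostly in the upper right, and Nr4a2 stands at -0.99 in control and 1.51 in 4E-BP1-cKO cells.

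Immediate early genes outside the rule went with it. Of 31 measured, 19 were over 1.5-fold higher in members of both libraries and 0 lower, beside 5.25% and 2.86% of all genes tested. The medians were 0.75 and 1.05 on the log2 scale. Summed over the list, the ratio was 1.92 (1.87 to 1.97) in control and 1.95 (1.86 to 2.03) in 4E-BP1-cKO cells. Klf6, a Krüppel-like transcription factor, stood at 2209 CPM in control members against 1133 in the rest, and at 2081 against 1185.5 CPM in 4E-BP1-cKO cells. Klf2, a relative that restrains inflammation, stood at 2114 against 796 CPM and at 1533 against 822 CPM. Jund, an AP-1 subunit, stood at 2102 against 1101 CPM and at 2369 against 1130.2 CPM. Rhob, a small GTPase, passed in control alone, with log2 ratios of 0.62 and 0.52. Socs3, the feedback inhibitor of cytokine receptors, stood at 540.2 against 177 CPM and at 656 against 245 CPM. Klf6 and Jund were at similar levels in members of either genotype, and Klf2 stood lower in 4E-BP1-cKO members. Nr4a2 and Plk3 had opposite directions in the libraries, at low counts. Nr4a2 stood at 29.3 CPM in control members against 59.1 in the rest, and at 58.0 against 19.8 CPM in 4E-BP1-cKO cells. Plk3, a stress-responsive kinase, had log2 ratios of -0.09 and 1.12.

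Some NF-kappaB subunit and feedback genes were higher in members too. Of 18 measured NF-kappaB subunits and feedback genes, 7 were over 1.5-fold higher in both libraries and 0 lower, beside 5.25% and 2.86% of all genes tested. The medians were 0.70 and 0.69, and the summed ratios 1.86 in control and 1.78 in 4E-BP1-cKO cells. Nfkbia, which encodes the inhibitor IκBα and is itself an NF-kappaB target, stood at 2096 CPM in control members against 741 in the rest, and at 2931 against 1099 CPM in 4E-BP1-cKO cells. Nfkbiz, an atypical nuclear IκB, stood at 1034 against 525 CPM and at 1355 against 668 CPM. The subunit genes Nfkb1, Nfkb2, Relb and Rela were also past 1.5-fold in both, as was Icam1, an adhesion molecule. The subunit gene Rel, at 0.52 and 0.39 on the log2 scale, was not. Nfkbie, another inhibitor gene, differed in direction. It stood at 70.1 CPM in control members against 31.9 in the rest and at 68.0 against 71.1 CPM in 4E-BP1-cKO cells. In the 4E-BP1-cKO rest, however, 1 cell held 27.8% of the Nfkbie UMIs. Without the cell with most Nfkbie UMIs in each set, the gene was higher in members of both libraries. It then stood at 67.4 against 28.9 CPM in control and at 63.4 against 51.9 CPM in 4E-BP1-cKO cells.

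Heat shock genes were higher in members. Of 21 measured, 13 were over 1.5-fold higher in members of both libraries and 0 lower, beside 5.25% and 2.86% of all genes tested. The medians were 0.90 and 1.11, and the summed ratios 1.97 (1.93 to 2.02) and 2.43 (2.30 to 2.57). Hspa1a, an inducible HSP70 on chr17:34969359-34972156, stood at 1989 CPM in control members against 752 in the rest, and at 1381 against 229 CPM in 4E-BP1-cKO cells. Its near-identical neighbor Hspa1b stood at 2342 against 1224 CPM and at 856 against 281 CPM. Reads may be divided between the 2 copies, and summed they gave ratios of 2.19 (2.08 to 2.31) and 4.39 (3.65 to 5.31). Dnajb1, the HSP40 partner of HSP70, stood at 386 against 133 CPM and at 329.8 against 79.0 CPM. Hsp90aa1, the inducible HSP90, stood at 2375.5 against 1223 CPM and at 1147 against 478 CPM. Hspa8, the constitutive HSP70, stood at 1995.5 against 892 CPM and at 1961 against 703 CPM. Hence Hspa8 reached similar levels in members of both genotypes, whereas Hspa1a, Hspa1b and Hsp90aa1 were lower in 4E-BP1-cKO cells on either side of the limit. In single members, the heat shock list took 0.246% to 6.09% of UMIs in control (median 1.501%) and 0.286% to 4.77% in 4E-BP1-cKO cells (median 1.12%), against medians of 0.727% and 0.537% in the rest, so the groups overlapped widely.

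The chemokine and cytokine list stood higher in members, with larger ratios in the 4E-BP1-cKO library. Of 20 measured, 8 were over 1.5-fold higher in both libraries and 0 lower, beside 5.25% and 2.86% of all genes tested. The medians were 0.50 in control and 1.01 in 4E-BP1-cKO cells. The summed ratios were 1.40 (1.36 to 1.44) and 2.16 (2.06 to 2.27), and the difference between the libraries was not tested. With each library divided at its own median, the 4E-BP1-cKO median was 0.64. It was 0.67 with the early share taken from Fos, Jun, Junb and Ier2. The 8 were Ptgs2, Tnfsf9, Ccl2, Il10, Osm, Il1a, Csf1 and Ccl3. Ccl3, a chemokine for monocytes and T cells on chr11:83647843-83649378, stood at 1366 CPM in control members against 834 in the rest, and at 2217 against 1075 CPM in 4E-BP1-cKO cells. Its relative Ccl4 stood at 3710.4 against 2805 CPM in control, under 1.5-fold, and at 7710.3 against 3035 CPM in 4E-BP1-cKO cells. Il1a, an interleukin-1, stood at 643 against 354 CPM and at 822 against 458 CPM. Thus, Il1a had like ratios in both libraries and Ccl4 did not. Cd14, the lipopolysaccharide co-receptor, had log2 ratios of -0.20 and 0.32. The chemokine list took a median of 0.874% of a member's UMIs in control and 1.49% in 4E-BP1-cKO cells, where the highest member reached 11.1%.

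**Figure D3:**
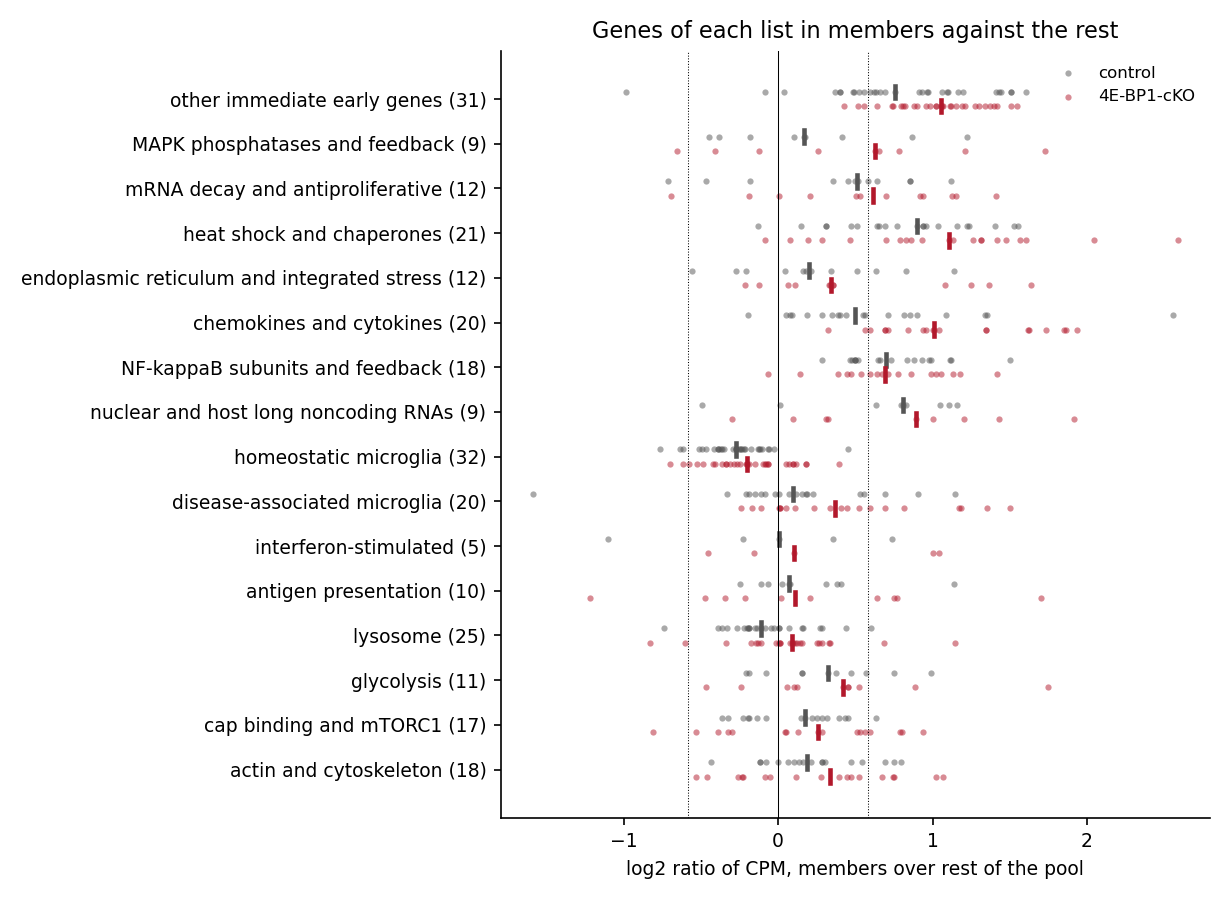
Log2 ratio of CPM in members over the rest of the pool, 1 point per gene, for each list with its number of measured genes, in control (grey) and 4E-BP1-cKO (red) cells. Upright bars are list medians and dotted lines mark 1.5-fold; the median of the heat shock list is 0.90 in control and 1.11 in 4E-BP1-cKO cells, and that of the homeostatic list is -0.27 and -0.20.

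Counts for other lists follow, beside 5.25% of all genes tested that were higher in both libraries and 2.86% that were lower. Differences between lists were not tested. Among MAPK phosphatases and feedback genes, which switch off MAP kinases, 2 of 9 were over 1.5-fold higher in both libraries, Dusp2 and Dusp5. Of 12 mRNA decay and antiproliferative genes, Pnrc1, Zc3h12a, Tob1 and Tob2 were higher and Cnot2, a subunit of the CCR4-NOT deadenylase, was lower at -0.71 and -0.69 on the log2 scale. Of 12 genes of endoplasmic reticulum and integrated stress, 3 were higher. These were Ppp1r15a, which restores translation after stress, at 1093 against 495 CPM in control and 1405 against 450.5 CPM in 4E-BP1-cKO cells, the transcription factor gene Atf4, and Hspa5, the chaperone of the endoplasmic reticulum. Of 9 long noncoding RNAs, 5 were higher, namely Neat1, a scaffold of nuclear paraspeckles, and the snoRNA hosts Snhg15, Snhg12, Snhg1 and Zfas1, and the list medians were 0.81 in control and 0.89 in 4E-BP1-cKO cells. Malat1, a nuclear RNA often used as a sign of nuclear content, had log2 ratios of 0.01 and 0.10.

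Most homeostatic genes were slightly lower in members, without any past 1.5-fold in both libraries. Of 32 measured, 24 had ratios below 1 in both, as had 38.2% of all genes tested. The medians were -0.27 and -0.20, against -0.07 and -0.04 over all genes. The summed ratios were 0.869 in control and 0.977 in 4E-BP1-cKO cells. Of a cell's UMIs the list took a median of 5.71% in control members against 6.85% in the rest, and of 6.13% against 5.87% in 4E-BP1-cKO cells, so the measures of the 4E-BP1-cKO library differed in sign. Of the 4 most abundant genes of the list, Cst3, Ctss and C1qa had opposite directions in the libraries, with log2 ratios of -0.13 and 0.11 for Cst3, a protease inhibitor, -0.023 and 0.10 for Ctss, a lysosomal protease, and -0.18 and 0.071 for C1qa, a complement component. The directions also differed for C1qb, C1qc, Selplg and Tyrobp. P2ry12 stood at 1273 CPM in control members against 1659.5 in the rest, and at 1119.5 against 1387 CPM in 4E-BP1-cKO cells. Of 20 genes of disease-associated microglia, 3 were higher in both libraries, Lpl, a lipoprotein lipase, Ftl1, a ferritin chain, and Axl, a receptor for dying cells. The counts were 1 of 5 interferon-stimulated genes (Irf1), 1 of 10 antigen presentation genes (Cd74), 1 of 25 lysosomal genes (Atp6v0c) and 2 of 18 actin and cytoskeleton genes (Actg1 and Tuba1b), beside 5.25% of all genes tested. None of 11 glycolytic genes and none of 17 cap-binding and mTORC1 genes passed in either direction, with medians of 0.17 and 0.26 for the latter.

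The genes farthest from the rest of the pool were taken by the smaller of their 2 log2 ratios. At the top stood Ptgs2, the cyclooxygenase of prostaglandin synthesis, at 132 CPM in control members against 21.6 in the rest and at 174 against 47.4 CPM in 4E-BP1-cKO cells. Of its UMIs in the rest, 1 cell held 47.8% in control and 58.3% in 4E-BP1-cKO cells. Without the cell with most Ptgs2 UMIs in each set, the log2 ratios were 3.06 and 2.69. Phlda1 stood at 78.5 against 21.6 CPM and at 178 against 23.7 CPM, and Sdc4, a cell surface proteoglycan, at 139 against 39.4 CPM and 184 against 51.4 CPM. Gdf15, a stress-induced cytokine, had log2 ratios of 1.76 and 3.71, but 1 cell gave 44.4% of its control member UMIs and 46.9% of its 4E-BP1-cKO member UMIs. Marcksl1 (1.74 and 1.77), Gm11290 (1.66 and 1.81), Socs3 (1.603 and 1.42), Dnajb1 (1.53 and 2.05), 2410006H16Rik (1.496 and 1.58), March3 (1.49 and 1.59), Tubb4b, a tubulin (1.48 and 2.87), and Lfng, which modifies Notch (1.44 and 2.10), completed the 12. Of the Gm11290 UMIs in members, 1 cell held 28.9% in control and 30.6% in 4E-BP1-cKO cells, where 7 of 76 members had a UMI. Tubb4b turned to -0.43 in control when cells were thinned to 1200 UMIs and members chosen again, and Gm11290 to -0.42 in 4E-BP1-cKO cells when the early share was taken from Fos, Jun, Junb and Ier2 alone. These include early, heat shock and signaling genes of unlike function.

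The 12 genes lowest in members were Gm5420 (-1.91 in control and -1.70 in 4E-BP1-cKO cells on the log2 scale), Gm35188 (-1.75 and -1.42), St5 (-1.68 and -1.33), Ube3c, a ubiquitin ligase (-1.30 and -1.49), Acss1, a mitochondrial acetyl-CoA synthetase (-1.24 and -2.09), Hmbox1 (-1.21 and -1.74), Cbfa2t2, a transcriptional corepressor (-1.18 and -1.94), Dstyk (-1.15 and -1.05), Il7r, the interleukin-7 receptor (-1.04 and -1.05), Meaf6, a subunit of histone acetyltransferases (-1.05 and -1.04), Cdk19, a kinase of the Mediator complex (-1.01 and -1.18), and Ccdc192 (-1.01 and -1.05). Acss1, for example, stood at 47.1 CPM in control members against 113 in the rest. The direction in 4E-BP1-cKO cells turned when cells were thinned to 1200 UMIs and members chosen again, to log2 ratios of 0.75 for Il7r, 0.43 for Ccdc192 and 0.028 for Ube3c, and it also turned for Meaf6, at very few UMIs.

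The pool was also divided into 4 groups of equal size by early share, of which the upper 2 are the members. From the lowest to the highest group, the heat shock list summed to 7736, 10435, 15474 and 21224 CPM in control cells. In 4E-BP1-cKO cells it summed to 4336, 6333, 11821 and 15922 CPM. Heat shock levels were thus higher in each next group of both libraries. The chemokine list summed to 5454, 9387, 10627 and 10220 CPM in control cells, which leveled off after the second group. In 4E-BP1-cKO cells it summed to 4503, 9647, 17186 and 18084 CPM, so that the level went on to the third group before it flattened. The homeostatic list fell short of its lowest-group level in each higher group of both libraries, from 72571 to 56772 CPM in control and from 77344 to 61159 CPM in 4E-BP1-cKO cells.

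**Figure D4:**
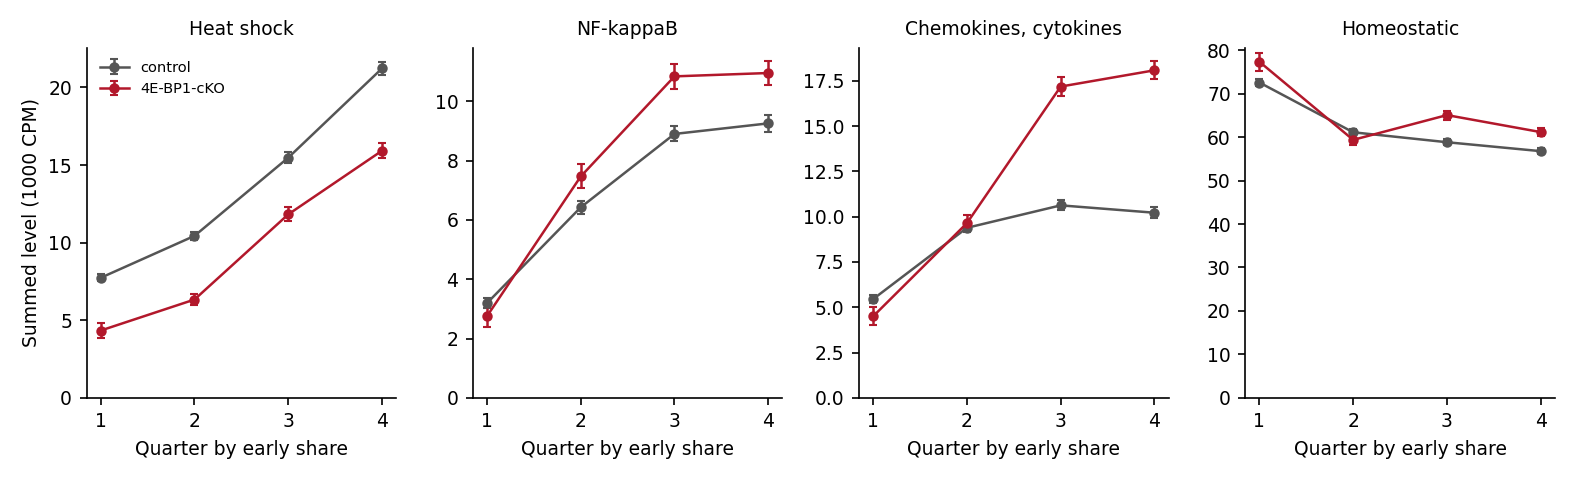
Summed level (axis unit 1000 CPM) of 4 gene lists in 4 groups of pool cells of rising early share, with 95% counting intervals, for control (grey; 90, 78, 72 and 64 cells) and 4E-BP1-cKO (red; 16, 28, 34 and 42 cells). The heat shock line of control cells lies above that of 4E-BP1-cKO cells in each group, and the chemokine lines part in the upper 2 groups.

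Over single pool cells, the early share went with the heat shock share at a Spearman rho of 0.57 over 304 control cells and 0.72 over 120 4E-BP1-cKO cells. The values were 0.71 and 0.57 for the NF-kappaB list, 0.39 and 0.46 for the chemokine list and -0.26 and -0.12 for the homeostatic list. These are shares of the same cell and library, and each also depends on its depth. Among members alone the chemokine relation was 0.08 and 0.01, and the heat shock relation 0.31 and 0.50. The heat shock and chemokine shares themselves had a rho of 0.13 and 0.24 over the pool and of -0.08 and -0.27 over members.

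The members were then compared between the genotypes, starting with the deleted gene. Over all kept cells Eif4ebp1 had 95 UMIs in the control library (20.1 CPM) and 51 in the 4E-BP1-cKO library (29.99 CPM), a ratio of 1.49 (1.04 to 2.12), and over members it had 29 and 19 UMIs, a ratio of 1.25 (0.663 to 2.31). In 4E-BP1-cKO members 1 cell held 31.6% of these UMIs, and without the top cell of each library the ratio was 0.931. Over all kept cells the transcript was not lower in the library labelled 4E-BP1-cKO. The study's genotyping names exon 2 as the conditional part of the gene, and the count tables do not say where in the gene a 3′ read fell. The count therefore does not check the label, and each direction below is that of the library so labelled. A difference in preparation between the libraries was not tested, and it cannot be told apart from a difference between genotypes. This holds for the early, heat shock and chemokine genes below as well. Tmem119, whose promoter drives the Cre, stood at 515 CPM in control and 176 CPM in 4E-BP1-cKO members, a ratio of 0.342 (0.269 to 0.429), and had a like ratio in the rest (0.332, 0.241 to 0.447).

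Among 4552 genes with at least 50 UMIs in members, 257 (5.65%) were over 1.5-fold higher in 4E-BP1-cKO than in control members and 406 (8.92%) over 1.5-fold lower. The intervals excluded 1 for 189 and 278 of them, and the median log2 ratio was -0.01. The members labelled 4E-BP1-cKO had the higher median early share (2.69% against 2.41%) and their count was smaller, at 76 cells against 136.

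The chemokine and cytokine list stood higher in 4E-BP1-cKO than in control members. Of 21 measured, 10 were over 1.5-fold higher and 0 lower, beside 5.65% and 8.92% of all genes tested. The median log2 ratio was 0.58 and the summed ratio 1.69 (1.64 to 1.74). In the rest of the pool the same list had a median of 0.11 and a summed ratio of 1.09 (1.04 to 1.15). Ccl4 was 2.08-fold higher in 4E-BP1-cKO members (1.98 to 2.18) and 1.08-fold in the rest (0.998 to 1.17). The median member had 2368 CPM of Ccl4 in control and 5234 CPM in 4E-BP1-cKO cells. A UMI of Ccl4 was present in 89.7% of control and 92.1% of 4E-BP1-cKO members. After each cell was thinned to 1200 UMIs, it was found in 72.8% (64.5 to 80.1%) of control and 80.3% (69.5 to 88.5%) of 4E-BP1-cKO members, with overlapping intervals. Tnf, the cytokine tumor necrosis factor, was 1.93-fold higher in members (1.63 to 2.29) with a ratio of 0.735 in the rest (0.516 to 1.02). Cxcl2, a neutrophil chemokine, was 2.01-fold higher (1.58 to 2.55) with a ratio of 0.803 in the rest (0.471 to 1.30). Ccl12, a monocyte chemokine, was 2.37-fold higher (1.87 to 3.01) with 0.656 in the rest (0.393 to 1.04), and it was found in 48 of 136 control and 32 of 76 4E-BP1-cKO members, or 11 and 19 after thinning. For Ccl4, Tnf, Cxcl2 and Ccl12, the member and rest intervals, which cover counting error only, did not overlap. That difference was not tested. In 4E-BP1-cKO members 1 cell held 29.7% of the Cxcl2 UMIs, and in control members 1 cell held 46.4%. Osm, which encodes oncostatin M, was higher on either side of the limit, by 2.32-fold in members and 2.19-fold in the rest.

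Il1b, the gene of interleukin-1β, had the highest ratio among genes with at least 100 UMIs in members, at 2.77 (2.198 to 3.51), with 132 CPM in control and 366 CPM in 4E-BP1-cKO members. It was carried by few cells. Of the 4E-BP1-cKO members 19 had a UMI, and 1 cell held 29.5% of the UMIs. Without the cell with most UMIs in each group the log2 ratio was 1.16, and the ratio in the rest was 0.930 (0.604 to 1.39). The rest joined 2 groups of opposite direction. In the lowest of the 4 groups by early share the ratio was 3.59 (1.63 to 7.46), from 24 control and 12 4E-BP1-cKO UMIs. In the second it was 0.488 (0.279 to 0.808), and in the upper 2 groups 3.51 and 2.06.

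As a list, heat shock genes stood lower in 4E-BP1-cKO cells, in members and in the rest. Of 22 measured, 0 were over 1.5-fold higher and 7 lower in members, beside 5.65% and 8.92% of all genes tested. The median log2 ratio was -0.16 and the summed ratio 0.778 (0.757 to 0.7999). In the rest 2 of the 22 were over 1.5-fold higher and 9 lower, beside 7.86% and 11.8% of all genes tested there, with a median of -0.46 against -0.01 over all genes. The summed ratio in the rest was 0.632 (0.597 to 0.667). Hspa1b had a ratio of 0.365 in members (0.329 to 0.405) and 0.229 in the rest (0.178 to 0.291), and summed with Hspa1a the ratios were 0.516 and 0.258. Hspa1a was found in 86.8% of control and 68.4% of 4E-BP1-cKO members and, after thinning, in 61.8% (53.0 to 70.0%) of control and 40.8% (29.6 to 52.7%) of 4E-BP1-cKO members. Hsph1, an HSP110 chaperone, had ratios of 0.379 and 0.515, and Hsp90aa1 of 0.483 and 0.391. Hspa8 stood at 0.983 in members and 0.789 in the rest.

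In members, other immediate early genes and the NF-kappaB list had summed ratios closer to 1. Of 33 early genes outside the rule, 6 were over 1.5-fold higher and 2 lower in 4E-BP1-cKO members, beside 5.65% and 8.92% of all genes tested. The median log2 ratio was 0.22 and the summed ratio 1.06. In the rest 2 of the 33 were higher and 7 lower, beside 7.86% and 11.8% of all genes tested there. The median there was 0.066 and the summed ratio 1.05. Of 18 NF-kappaB genes 0 passed in either direction in members, with a median of 0.28 and a summed ratio of 1.204. In the rest 1 of the 18 was higher and 0 lower, with a median of 0.22 and a summed ratio of 1.26 (1.19 to 1.33).

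**Figure D5:**
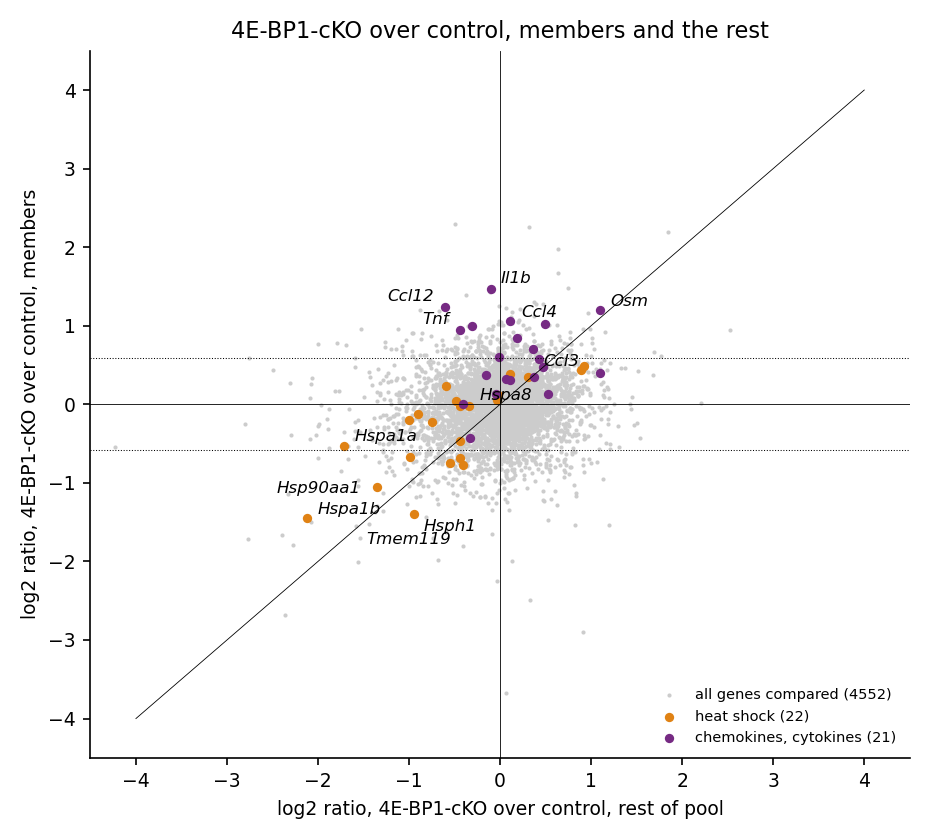
Log2 ratio of CPM in 4E-BP1-cKO over control cells for 4552 genes, in the rest of the pool (horizontal) and in members (vertical), with the line of equal ratios and dotted lines at 1.5-fold; 3 genes lie outside the axes. Ccl4, Tnf and Ccl12 stand near or above 1 in members and near or below 0 in the rest, while Hspa1b and Tmem119 are low on both axes.

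The genotypes were also compared within the 4 groups of like early share. In the highest group, where the median early share was 3.25% in both libraries, the chemokine ratio of 4E-BP1-cKO to control cells was 1.77 (1.70 to 1.84), and in the group below it 1.62 (1.55 to 1.68). In the lower 2 groups it was 0.826 (0.734 to 0.927) and 1.03 (0.973 to 1.09). The heat shock ratio was 0.561, 0.607, 0.764 and 0.750 from the lowest to the highest group. For Ccl4 the ratios were 0.568, 1.10, 1.71 and 2.47, and for Tnf 0.134, 0.907, 1.70 and 2.32. Cxcl2 and Ccl12 did not follow this order. The ratio of Cxcl2 was 2.84 (2.15 to 3.76) in the third group and 0.977 (0.575 to 1.63) in the highest, and that of Ccl12 was 3.70 (2.67 to 5.16) and 1.41 (0.981 to 2.03). For Tmem119 the ratios were 0.347, 0.354, 0.289 and 0.406. The ratios of Ccl4 and Tnf were therefore higher in each next group, while those of Cxcl2, Ccl12 and Tmem119 were not. The lowest Tnf ratio rested on 2 UMIs in 4E-BP1-cKO cells (0.016 to 0.496). The Tnf intervals of the upper 2 groups overlapped (1.34 to 2.14 and 1.79 to 3.01).

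Among all genes with at least 100 UMIs in members, the other genes with the highest 4E-BP1-cKO ratios were Cpd, a carboxypeptidase (2.44 in members and 1.39 in the rest), Cacna1a, a calcium channel subunit (2.44 and 1.32), Gm10138 (2.35 and 1.05), Phlda1 (2.27 and 1.10), Rev3l, a DNA polymerase subunit (2.09 and 1.004), and Dusp2, a nuclear MAP kinase phosphatase (2.08 and 1.14). The lowest were Exoc3l2 (0.149), Gclm, of glutathione synthesis (0.170), Il31ra, a cytokine receptor (0.302), Gm37240 (0.322), Glcci1 (0.339), Ccdc152 (0.341), Tmem119, Hspa1b, Hsph1 and G530011O06Rik (0.382). After thinning with members chosen again, Glcci1 stood at 0.17 on the log2 scale. Some of these rest on 1 cell. All 9 Exoc3l2 UMIs of 4E-BP1-cKO members lay in 1 cell, and 1 control cell held 88.1% of the control Gclm UMIs, without which, and without the top cell of the other library, its log2 ratio was 0.15. Il31ra, Ccdc152 and G530011O06Rik had like ratios in the rest (0.339, 0.364 and 0.381), whereas Glcci1 stood at 1.79 there.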

How the data were processed

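The files deposited by the authors hold UMI counts, not normalized, from Cell Ranger count 8.0.1 and mm10. No source used here gives the annotation release. UMIs were summed over the cells of each library and set, and divided by the total without the 9 rule genes. Log2 ratios used a pseudocount of 1 CPM, and ratios have exact conditional Poisson intervals (95%). Shares of cells have exact binomial intervals. The members and the gene lists were chosen with earlier results of these data known. Genes named are the rule genes and markers, the 4 most abundant genes of a list and those of opposite direction, the 12 highest and 12 lowest in members by the weaker library, and the 10 highest and 10 lowest between genotypes with at least 100 UMIs. Other genes past the fold, and P2ry12, Tnf, Cxcl2, Top2a and Stmn1, were named after their values were seen. Doublets were not removed. Scrublet in scanpy 1.11.5 called 2 control and 2 4E-BP1-cKO members. RefSeq positions (GRCm38.p6) were matched by symbol or synonym for 26696 of 32285 identifiers. Python 3.11.15, numpy 2.4.6, scipy 1.17.1 and pandas 2.3.3 were used, and edgeR 4.0.16 gave TMM factors for 1 alternative. The steps were tested on simulated data. Values of some genes are not reported here.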

Additional observations from a re-analysis of the deposited data

Results flagged for a closer look

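For 7 named genes the members lay on opposite sides of the rest of the pool in the libraries, with counting intervals on opposite sides of a ratio of 1. The difference between the libraries was not tested, since each genotype had 1 library. On the log2 scale of members over the rest, control before 4E-BP1-cKO, the values were -0.99 and 1.51 for Nr4a2, an orphan nuclear receptor induced as an early gene, 1.51 and -0.86 for Glcci1, -0.74 and 0.25 for Ctsc, a lysosomal protease, and 0.31 and -0.72 for Gm37240. Abundant genes differed by little, at -0.11 and 0.18 for C1qb, a complement component, -0.13 and 0.11 for Cst3, a protease inhibitor, and -0.079 and 0.11 for Tmsb4x, which binds actin monomers. Nr4a2 had few UMIs, and 1 cell held 31.0% of those in 4E-BP1-cKO members.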

How the results depend on the processing

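Of 310 values of the main results under the alternatives, 267 kept their direction and stayed within the spread allowed, and 43 moved. Of 1410 other values, of single genes, the remaining lists and summed list ratios, 1231 stayed, 164 moved and 15 changed sign. A change of sign was counted only for log2 ratios past 1.5-fold in the main setting. Leaving out a library was not possible, and no paired analysis was possible because each genotype had 1 library. With each library divided at its own median, members were by construction 50% of the 4E-BP1-cKO pool, and the 4E-BP1-cKO medians (log2, members over rest) were 0.74 for other early genes, 0.64 for chemokines and 0.47 for NF-kappaB. A ribosomal range of 3 to 7% gave 1.34 for NF-kappaB in 4E-BP1-cKO cells. With cells thinned to 1200 UMIs and members chosen again, 78 genes were higher and 24 lower in members of 938 compared, and 59 higher and 96 lower in 4E-BP1-cKO members of 932, the 4E-BP1-cKO median of NF-kappaB was 0.44 and the heat shock rho 0.62. With members as first chosen, thinning gave 100 and 20 of 938, 69 and 95 of 970, and 1.61 for heat shock in 4E-BP1-cKO cells. An early share of 4 genes gave 127 and 71 of 4194, with 4E-BP1-cKO medians of 0.81 for other early genes and 0.67 for chemokines. The highest against the lowest of 4 groups gave 262 of 2578 genes lower in 4E-BP1-cKO cells, and medians (control and 4E-BP1-cKO) of 1.499 and 2.23 for other early genes, 1.44 and 1.89 for heat shock, 1.49 and 1.86 for NF-kappaB and -0.44 and -0.59 for homeostatic genes, with 1.03 for chemokines and 1.31 for long noncoding RNAs in control. Without a minimum of UMIs the counts were 1057 and 1179 of 17657 between members and rest and 2686 and 4846 of 15762 between genotypes. A minimum of 100 UMIs gave 107 and 31 of 1512, and 96 and 166 of 2687. A 2-fold limit gave 62 and 13 of 4194, and 40 and 84 of 4552. Signs turned for genes of few UMIs. Chosen again after thinning, the log2 ratios were 0.43 for Ccdc192, 0.75 for Il7r, 5.61 for Meaf6 (its size set by the pseudocount, at very few UMIs) and 0.028 for Ube3c in 4E-BP1-cKO cells, -0.43 for Tubb4b in control, and 0.17 for Glcci1 between genotypes. Thinned as first chosen, they were 0.23 for Ccdc192, 0.55 for Il7r and 0.79 for Meaf6 in 4E-BP1-cKO cells and 0.0082 for Il7r in control. Between the outer groups, Il7r stood at 1.36 and Meaf6 at 0.54 in 4E-BP1-cKO cells, and with 4 genes Gm11290 stood at -0.42. Between genotypes Gclm stood at 0.39 without cells bearing markers of another type or of proliferation and at 0.15 without its top cell. Except where a value shows it, the cause was not tested.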

Other observations

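Prkd1, a protein kinase D gene, was singled out after its values were seen. It had 0 UMIs in the 136 control members and 0 in the control rest, against 81 UMIs in 33 of the 76 4E-BP1-cKO members and 63 UMIs in 27 of the 44 cells of the 4E-BP1-cKO rest. Set against a floor of 3 UMIs over the control group, it was at least 51.6-fold higher in 4E-BP1-cKO members and at least 88.5-fold higher in the 4E-BP1-cKO rest. Within that library it was lower in members than in the rest, at 162 against 249 CPM, a ratio of 0.650 (0.462 to 0.919). Proliferation markers in control members were 5.26-fold those in the rest (3.87 to 7.26), but 1 cell held 67.9% of their UMIs. Without the top cell of each set the ratio was 1.86 (1.28 to 2.73). In the 4E-BP1-cKO library the ratio was 2.53 (1.22 to 5.89) from 45 and 9 UMIs, and without the top cell of each set, which held 55.6% of the rest's UMIs, it was 4.86 (1.75 to 18.7).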
